A study of Mus musculus with 6 samples.

Results

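The genes described are those of 10 tubulin isotypes, 4 of alpha tubulin (Tuba1a, Tuba1b, Tuba1c and Tuba4a) and 6 of beta tubulin (Tubb2a, Tubb2b, Tubb4a, Tubb4b, Tubb5 and Tubb6). They were taken from the 42365 genes of the deposited count table by gene symbol, and all 10 were found and passed the filter on low counts. RNA was sequenced from 6 libraries of a mouse line labelled NPC, for neural progenitor cells, the precursors of neurons and glia. The groups were 2 libraries of wild-type parental cells, 2 libraries of PARKIN KO clone 1 and 2 libraries of PARKIN KO clone 2, and the labels give no treatment for any of them. Parkin is a ubiquitin ligase that marks damaged mitochondria for removal. The titles number the parental libraries as clones 1 and 2, and each labelled knockout group is 1 clone. No label says that libraries of 1 clone were grown apart, so p-values from single libraries measure a spread that may be technical.

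Microtubules are built from dimers of alpha and beta tubulin, each encoded by several isotype genes. The proteins differ mainly in their acidic tails at the carboxyl end, where enzymes add glutamate and glycine chains and where microtubule-associated proteins and motors bind. Tuba1a is the main alpha isotype of the developing brain, Tubb2a, Tubb2b and Tubb3 are abundant in neurons, Tubb4a in myelinating and neuronal cells, and Tubb5 in dividing progenitors. Cells also hold tubulin mRNA in check by autoregulation: when free dimers are plentiful, a factor (TTC5) binds the first residues of the new tubulin chain on the ribosome and the mRNA is degraded.

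The sequence read in autoregulation is the start of the coding region. The first 30 coding bases of 5 members are given below from the GENCODE M21 transcripts (GRCm38), with the first 4 codons in capitals, because these codons encode the residues that mark a tubulin mRNA.
Tuba1a start: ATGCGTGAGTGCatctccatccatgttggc
Tuba4a start: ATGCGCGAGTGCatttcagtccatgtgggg
Tubb2b start: ATGCGAGAGATCgtgcacattcaggcgggc
Tubb4a start: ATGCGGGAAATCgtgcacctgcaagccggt
Tubb5 start: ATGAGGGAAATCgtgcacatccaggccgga
The tails set many of the isotypes apart. The ends of Tubb2a and Tubb2b below differ in bases but encode the same residues. The same holds for those of Tuba1a and Tuba1b, not shown. The last 45 coding bases before the stop codon follow for 6 members, with the last codon in capitals.
Tuba1c end: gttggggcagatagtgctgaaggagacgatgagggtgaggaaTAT
Tuba4a end: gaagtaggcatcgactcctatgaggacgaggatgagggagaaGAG
Tubb2a end: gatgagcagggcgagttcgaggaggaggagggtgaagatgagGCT
Tubb2b end: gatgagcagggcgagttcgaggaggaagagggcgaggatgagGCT
Tubb4a end: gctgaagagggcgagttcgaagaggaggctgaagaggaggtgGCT
Tubb5 end: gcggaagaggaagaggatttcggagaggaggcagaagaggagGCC
Tuba1c ends in a codon for tyrosine, the residue that the vasohibin enzymes remove and tubulin tyrosine ligase restores, while Tuba4a does not.

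Tuba1b, Tuba1a and Tuba1c lie in a cluster on chromosome 15 of GRCm38 (98931425 to 98934565, 98949837 to 98953703 and 99029891 to 99038110). Tubb2a and Tubb2b are neighbours on chromosome 13 (34074274 to 34078007 and 34126748 to 34130466), and Tubb5 and Tubb4a are both on chromosome 17 (35833921 to 35838306 and 57080066 to 57087782). Tuba4a is on chromosome 1 (75214228 to 75219865) and Tubb4b on chromosome 2 (25222160 to 25224702). Each has 4 exons in its transcript with the longest complete coding sequence, and coding lengths ran from 1332 to 1353 bases. Coding sequences were 84.8% to 98.3% identical among the alpha members (6 pairs), 80.2% to 96.5% among the beta members (15 pairs) and 55.8% to 57.6% between the families (24 pairs).

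This likeness bears on every count of the Tuba1 genes. Of the 100-base words of a Tuba1b transcript, 30.5% occurred in no transcript of another gene, and the shares were 34.9% for Tuba1a and 46.6% for Tuba1c. For Tubb2a, Tubb4b and Tubb2b they were 63.1%, 70.8% and 72.3%. All 100-base words of Tuba4a, Tubb4a, Tubb5 and Tubb6 were found in no other gene. Reads from shared stretches may be dropped, split or counted for another copy, and the authors' treatment of them was not stated in the labels or file. Reads were also counted on 11 annotated genes, analysed here, that share at least 1% of the 100-base words of a member. Of the 11, those like the Tuba1 genes held 19% to 24% of the counts of the 3 members and these copies together. Gm17383, which shares 32.1% of the 100-base words of Tuba1a, was not among the 11, so this share leaves it out. Levels of Tuba1a, Tuba1b and Tuba1c relative to each other are therefore uncertain.

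**Figure D1:**
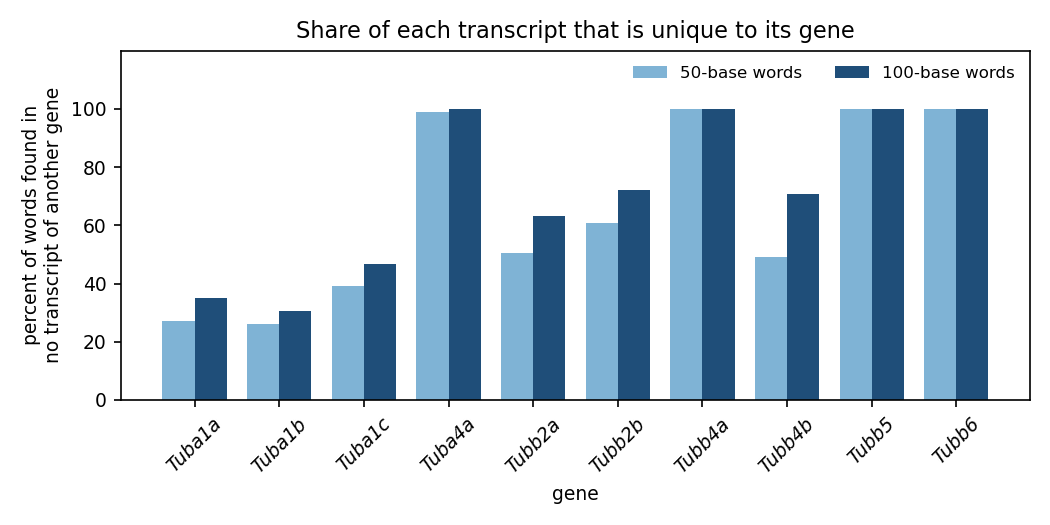
Percent of the 50-base and 100-base words of each member's transcript (vertical axis) that occur in no GENCODE M21 transcript of another gene, by gene (horizontal axis). Bars of Tuba1a, Tuba1b and Tuba1c stay below 50% at both lengths, and those of Tuba4a, Tubb4a, Tubb5 and Tubb6 reach at least 98.9%.

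Library totals ran from 58871554 to 69530032 counts, and the 10 members took 0.655% and 0.663% of the counts in the parental libraries and 0.273% to 0.287% in the 4 labelled knockout libraries. Genes with a count numbered 37678 and 37419 in the parental libraries and 30747 to 32686 in the labelled knockout libraries. The labels name 2 library kits without saying which library had which, so a part of the kit in these differences could not be tested. The gene that the labels give as knocked out had 301 and 335 counts in parental cells, 453 and 456 in clone 1, and 347 and 351 in clone 2. Scaled to library size it did not pass in labelled knockout against parental (log2 fold change 0.27, SE 0.19, adjusted p = 0.351). Gene counts do not show which exons were read, and the genotype is given here only as labelled. Levels are in CPM, the share of a library's counts after TMM scaling (which assumes that most genes do not differ), and values after ± are the SD of 2 libraries (n = 2). In the main comparison the 2 libraries of a clone were added, and the 2 clones were set against the 2 parental libraries in edgeR's quasi-likelihood test with Benjamini-Hochberg adjustment over all genes. After a log2 fold change, SE is its standard error.

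The alpha tubulin genes were lower in the labelled knockout cells, all 4 of them past the test. Tuba1a, the most abundant member, had 3360.3 and 3426 CPM in parental cells, 809 and 753 in clone 1, and 701 and 695 in clone 2. All 4 labelled knockout libraries lay far below both parental ones, but libraries were also separated in members that did not pass. The log2 fold change of Tuba1a was -2.17 (SE 0.10, adjusted p = 0.000321), a 4.49-fold difference. Tuba4a, the isotype without the final tyrosine codon, had 33.95 and 34.8 CPM in parental cells, 1.60 and 1.60 in clone 1, and 2.36 and 2.14 in clone 2. It fell by 4.12 (SE 0.21, adjusted p = 0.000373), which is 17.4-fold and the largest change of a member. Of its exonic bases 37.3% also lie in an exon of Stk16 on the other strand, and whether the counting used strand is not known. Stk16 itself did not pass (-0.22, SE 0.098, adjusted p = 0.153).

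Tuba1c and Tuba1b, alpha isotypes found in most tissues, fell by less as counted. Reads of the shared Tuba1 stretches leave the order of these falls uncertain. Tuba1c had 792 and 864 CPM in parental cells, 308 and 279.5 in clone 1, and 231 and 229 in clone 2. Its log2 fold change was -1.63 (SE 0.14, adjusted p = 0.00135). For Tuba1b the values were 304.5 and 335 in parental cells, 186 and 197 in clone 1, and 163 and 147 in clone 2. Its log2 fold change was -0.85 (SE 0.13, adjusted p = 0.00819), and without parental library 2 it missed the threshold (adjusted p = 0.0682).

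Of the 6 beta tubulin genes 2, Tubb4b and Tubb6, fell past the test, and 0 rose. Tubb4b, a widely expressed isotype also used in cilia, had 203 and 205 CPM in parental cells, 98.8 and 100.7 in clone 1, and 118.96 and 116.8 in clone 2. It fell by 0.88 (SE 0.11, adjusted p = 0.00528). Tubb6 had 47.8 and 45.6 CPM in parental cells, 26.3 and 27.0 in clone 1, and 30.9 and 33.1 in clone 2. It fell by 0.64 (SE 0.13, adjusted p = 0.0195), and without either parental library it missed the threshold (adjusted p of 0.194 and 0.139).

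The neighbours Tubb2a and Tubb2b, isotypes of neurons and their precursors, did not pass with the clones as replicates. Tubb2a had 452 and 438 CPM in parental cells, 258 and 302 in clone 1, and 349.9 and 357 in clone 2 (log2 fold change -0.46, SE 0.14, adjusted p = 0.0624). For Tubb2b the values were 606 and 572, then 368 and 444, then 490.5 and 502 (log2 fold change -0.35, SE 0.13, adjusted p = 0.103). In both genes every labelled knockout library lay below both parental ones, and clone 1 lay below clone 2. The libraries of Tubb5 and Tubb4a, which also did not pass, were separated from the parental ones as well. The share of all genes separated in this way is not given here. Tubb2a was near the threshold and passed in 7 of 14 alternatives, among them DESeq2 size factors (adjusted p = 0.0468).

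Tubb5, the beta isotype of dividing cells, was at a like level in all 6 libraries. It had 705 and 684 CPM in parental cells, 720.4 and 794 in clone 1, and 728 and 748 in clone 2. The labelled knockout libraries all lay above the parental ones, but the difference did not pass (log2 fold change 0.14, SE 0.08, adjusted p = 0.285). Tubb4a differed between the clones and is described below (log2 fold change -0.98, SE 1.13, adjusted p = 0.577).

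**Figure D2:**
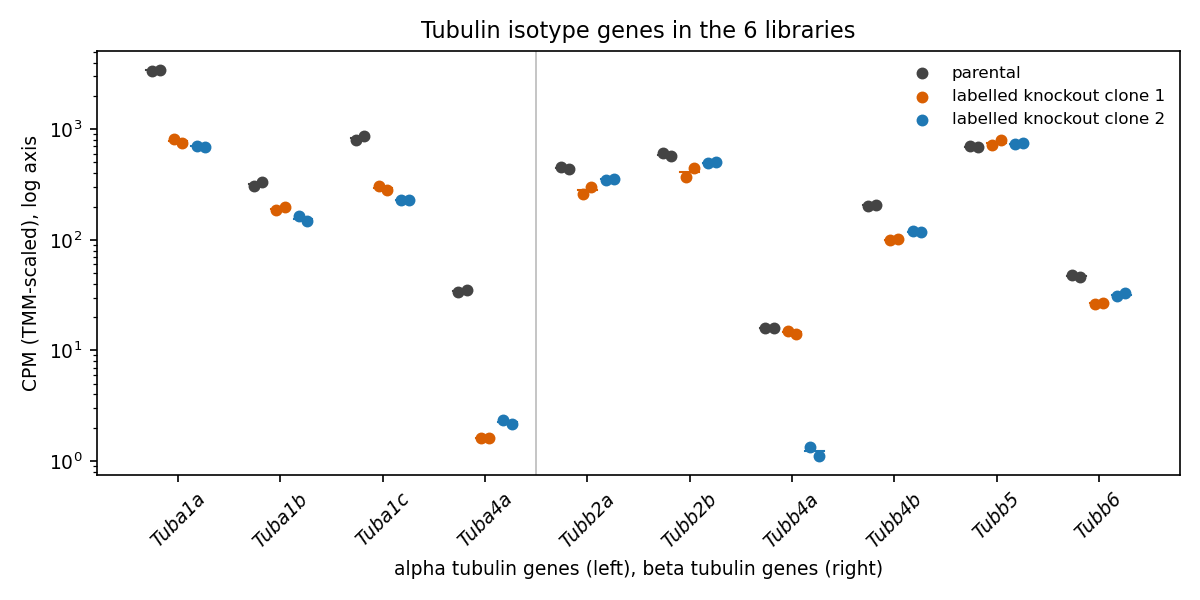
CPM on a log axis (vertical) of each member (horizontal) in the 2 parental libraries and the 2 libraries of each labelled knockout clone; points are libraries and short lines are group means. Tuba1a falls from 3360.3 and 3426 CPM to between 695 and 809, and Tubb4a is low in clone 2 only, at 1.34 and 1.12 CPM.

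In all, 0 of 10 members were higher and 6 were lower in labelled knockout against parental, where 26.7% of all 24506 genes tested were called by the same rule, 13% higher and 13.6% lower. The median log2 fold change was -1.90 over the 4 alpha members, -0.55 over the 6 beta members and 0.03 over all genes tested. By edgeR's quasi-likelihood test the count of lower members was 4 without parental library 2, which was the lowest with any library left out, and all genes called fell to 2544 and 2529 without parental library 1 or 2. The members were picked with results of these data known, so their counts describe them and are set beside all genes only for scale.

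Summed within each family per kilobase of exon, alpha tubulin RNA as counted fell to near the level of beta tubulin RNA. The 4 alpha members summed to 2382 and 2466 CPM per kb in parental cells, 683 and 645 in clone 1, and 577 and 564 in clone 2. These sums are 3.65-fold lower in clone 1 and 4.25-fold lower in clone 2 than in parental cells. The 6 beta members summed to 881 and 851 CPM per kb in parental cells, 602 and 685 in clone 1, and 720.2 and 736 in clone 2, which is 1.35-fold and 1.19-fold lower. The ratio of alpha to beta was thus 2.80 ± 0.14 in parental cells, 1.04 ± 0.14 in clone 1 and 0.784 ± 0.024 in clone 2. The ratio ran from 0.767 to 1.13 in the 4 labelled knockout libraries and was 2.70 and 2.897 in the parental ones. With 2 libraries against 2 the smallest exact two-sided p is 1 in 3, so no test was run. This is a ratio of mRNA levels, and protein was not measured here. Reads of the shared Tuba1 stretches may have been dropped or counted for copies, so the size of the ratio within a group is uncertain.

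The makeup of each family changed as well. Tuba1a made up 77.7% ± 0.85 of alpha tubulin RNA per kb in parental cells, 65.2% ± 0.65 in clone 1 and 67.8% ± 0.64 in clone 2. Tuba1b went from 7.04% ± 0.31 to 15.4% ± 1.2 and 14.5% ± 0.78, and Tuba1c from 14.9% ± 0.55 to 19.3% ± 0.56 and 17.6% ± 0.14. Among the beta genes, Tubb5 went from 24.1% ± 0.075 to 35.4% ± 0.797 and 30.5% ± 0.13. Tubb4b went from 11.3% ± 0.35 to 7.45% ± 0.58 and 7.76% ± 0.22. As counted, these shifts in share are larger than the spread between libraries of a group. That spread does not capture reads assigned to another Tuba1 gene, so the shares of Tuba1a, Tuba1b and Tuba1c remain uncertain. All these values are shares of a sum, so a gene can gain share without a higher level, as Tuba1b did.

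**Figure D3:**
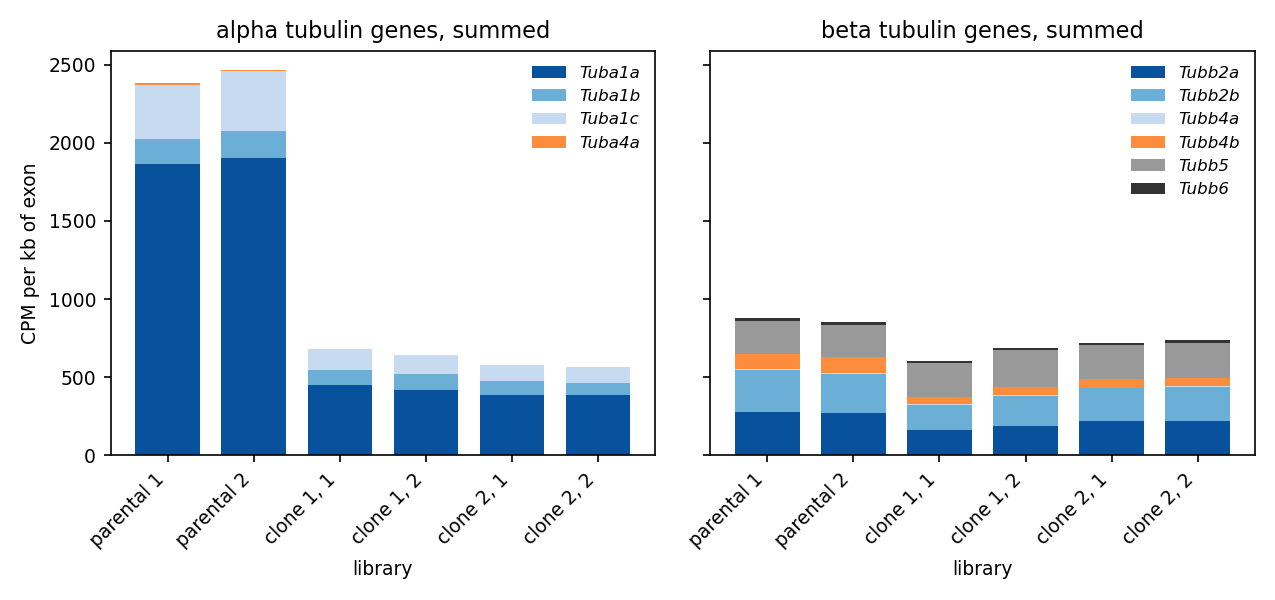
Summed level of the alpha (left) and beta (right) members in CPM per kb of exon (vertical axis, from 0) by library (horizontal axis), with 1 colour for each gene. The alpha bars drop from 2382 and 2466 to between 564 and 683, and the beta bars go from 881 and 851 to between 602 and 736.

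Ordered by mean level per kb of exon, the parental cells had Tuba1a first (1882 ± 26 CPM per kb), then Tuba1c (362 ± 22), Tubb2a (276 ± 6.2), Tubb2b (257 ± 11), Tubb5 (209 ± 4.4), Tuba1b (171 ± 12), Tubb4b (97.8 ± 0.66), Tubb6 (19.2 ± 0.64), Tuba4a (9.29 ± 0.16) and Tubb4a (7.12 ± 0.029). Neighbours in that order did not overlap between libraries. In both clones Tuba1a remained first and Tubb5 came next, at 228 ± 16 CPM per kb in clone 1 and 222 ± 4.3 in clone 2. In clone 1 Tubb2a (174 ± 19) and Tubb2b (177 ± 23) overlapped. In clone 2 Tubb5 overlapped with Tubb2a (219.5 ± 3.1), Tubb2a with Tubb2b (216 ± 3.7), and Tuba4a (0.607 ± 0.041) with Tubb4a (0.553 ± 0.071). Tuba1c moved from the second place to the fifth in both clones. The places of the Tuba1 genes share the uncertainty of their counts.

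Each clone was then set against the parental libraries in 1 fit of all 6, where libraries stand as replicates and both contrasts share the parental samples. In clone 1, 8 members were lower and 1 was higher. Of 23400 genes 54.5% were called there, 27.2% lower and 27.3% higher. In clone 2, 9 were lower and 0 were higher, where 53.5% of all genes were called, 26.8% lower and 26.7% higher. Tuba1a fell by 2.12 in clone 1 (SE 0.045, edgeR adjusted p = 4.05e-16) and by 2.28 in clone 2 (SE 0.045, edgeR adjusted p = 2.05e-16). Tuba4a fell by 4.42 and 3.93, Tuba1c by 1.49 and 1.85, and Tuba1b by 0.74 and 1.05. Among the beta genes Tubb4b fell by 1.03 and 0.79, Tubb6 by 0.81 and 0.55, Tubb2a by 0.67 and 0.33, and Tubb2b by 0.54 and 0.25. In clone 2 the fall of Tubb2b missed the threshold without parental library 1 or either clone 2 library (adjusted p from 0.121 to 0.191).

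The 1 member called higher in clone 1 was Tubb5, with a log2 fold change of 0.12 (SE 0.047, edgeR adjusted p = 0.0351). This call was lost in 7 of 13 alternatives, with DESeq2 size factors and upper quartile scaling among them (adjusted p of 0.0615 and 0.154), and without parental library 1, parental library 2 or clone 1 library 2 (0.135, 0.340 and 0.133). In clone 2 Tubb5 did not pass (0.09, SE 0.047, edgeR adjusted p = 0.132), but it did without either clone 1 library (0.000978 and 0.00633).

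**Figure D4:**
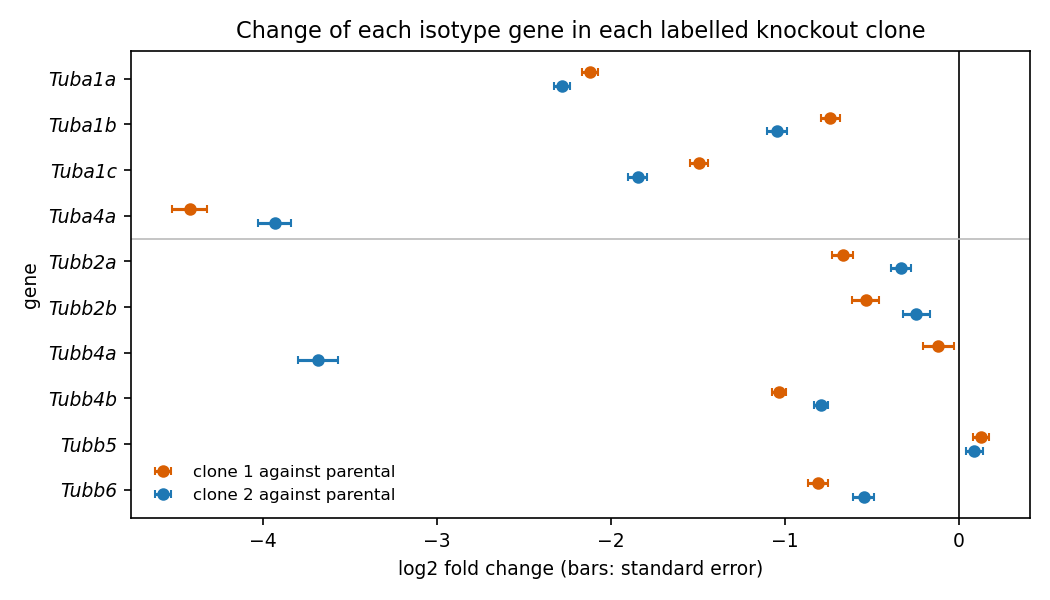
Log2 fold change against parental cells (horizontal axis, bars are SE) of each member (vertical axis) in clone 1 and clone 2, from 1 fit of all 6 libraries. Tubb5 lies near 0 in both clones, the other members lie below 0, and Tubb4a lies at -0.12 in clone 1 and -3.68 in clone 2.

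The clones differed from each other in 9 of 10 members, 5 higher and 4 lower in clone 2. Of all genes 36.4% were called here, 16.1% higher and 20.3% lower. The largest of these differences was in Tubb4a, known for its part in oligodendrocytes and neurons and the gene of a leukodystrophy. It had 15.8 and 15.9 CPM in the parental libraries (1015 and 938 counts), 15.1 and 14.1 in clone 1 (990 and 970 counts), and 1.34 and 1.12 in clone 2 (89 and 69 counts). Parental cells and clone 1 lay close together, and clone 2 lay far below both. Against clone 1 it was lower by a log2 fold change of -3.56 (SE 0.12, edgeR adjusted p = 1.21e-12), which is 11.8-fold, and against parental cells by -3.68 (SE 0.12, adjusted p = 6.38e-14). In clone 1 its difference from parental cells did not pass (-0.12, SE 0.087, edgeR adjusted p = 0.270).

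The other clone differences were smaller and went both ways, also within the alpha family. In clone 2 against clone 1, Tuba1a (-0.16, SE 0.043), Tuba1b (-0.31, SE 0.056) and Tuba1c (-0.35, SE 0.052) were lower. Tuba4a (0.49, SE 0.12), Tubb2a (0.34, SE 0.059), Tubb2b (0.29, SE 0.077), Tubb4b (0.24, SE 0.042) and Tubb6 (0.26, SE 0.060) were higher. Their edgeR adjusted p ran from 5.4e-05 for Tuba1c to 0.0171 for Tubb2b. Leaving out a library ended the call of Tuba1a in 5 of 6 cases (adjusted p up to 0.114), Tuba4a without clone 2 library 1 (0.0513) and Tubb2b without clone 2 library 2 (0.0791). Within clone 1 the libraries also differed: library 2 was above library 1 in Tubb2a, Tubb2b and Tubb5 and below it in Tuba1a and Tuba1c. Tubb5 did not differ past the test between the clones (-0.04, SE 0.047, adjusted p = 0.593), and the sign of this value turned without clone 1 library 2 (0.03) or clone 2 library 1 (0.01).

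The upstream sequences of the 3 members with the largest changes are shown because their levels moved most: Tuba1a and Tuba4a in both clones and Tubb4a in clone 2. They are the 250 bases before the RefSeq start of each gene (GRCm38.p6), on the strand of the gene. These starts lie inside the GENCODE spans given above, so the window of Tuba4a lies wholly within its GENCODE gene and those of Tuba1a and Tubb4a in large part. Capitals mark matches, on either strand, to CCAAT (the CCAAT box), GGGCGG (the GC box), TATAAA (the TATA box) and TGACGTCA (the cAMP response element).
Tuba1a upstream, chr15:98953502-98953751, minus strand: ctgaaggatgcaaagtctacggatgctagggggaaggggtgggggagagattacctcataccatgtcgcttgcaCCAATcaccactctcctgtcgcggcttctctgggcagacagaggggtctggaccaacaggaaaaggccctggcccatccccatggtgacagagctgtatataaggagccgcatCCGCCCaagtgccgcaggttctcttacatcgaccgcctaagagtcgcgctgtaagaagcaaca
Tuba4a upstream, chr1:75219295-75219544, minus strand: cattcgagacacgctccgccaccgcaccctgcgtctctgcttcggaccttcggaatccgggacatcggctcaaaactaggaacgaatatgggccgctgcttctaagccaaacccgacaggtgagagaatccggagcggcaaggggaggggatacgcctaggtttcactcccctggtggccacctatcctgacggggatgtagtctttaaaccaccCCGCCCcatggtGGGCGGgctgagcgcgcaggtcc
Tubb4a upstream, chr17:57087601-57087850, minus strand: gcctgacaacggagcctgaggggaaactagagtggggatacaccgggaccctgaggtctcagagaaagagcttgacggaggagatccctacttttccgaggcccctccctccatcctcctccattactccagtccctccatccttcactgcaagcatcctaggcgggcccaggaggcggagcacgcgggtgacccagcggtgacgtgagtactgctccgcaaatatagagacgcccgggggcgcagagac
Promoter entries were found for 8 of 10 members, all but Tubb2b and Tubb6. Tuba1a had 1 CCAAT and 1 GC box match, Tuba4a had 2 GC box matches, and these letters did not occur in the window of Tubb4a. Tubb4b had 5 CCAAT matches, Tubb5 had 2, and Tubb2a had 2 GC box matches, 1 TATA box match and 1 cAMP response element match. Over all 32851 windows of this length, 33.9% held CCAAT, 32.7% GGGCGG, 12.4% TATAAA and 1.55% TGACGTCA. A match describes the letters and shows no binding.

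Of the 11 copies 10 fell in labelled knockout against parental, where 13.6% of all genes fell. Gm16165, with 3 to 12 counts a library, did not pass (-0.52, adjusted p = 0.461). The processed pseudogene Gm3226 had 492 and 542 CPM in parental cells, 188 and 157 in clone 1, and 129 and 127 in clone 2 (log2 fold change -1.75, SE 0.16, adjusted p = 0.00164). The 7 copies analysed here that share words with the Tuba1 genes were lower, by log2 fold changes from -1.23 for Gm14150 to -2.34 for Gm7172. Whether these are transcripts of the copies or reads of the Tuba1 genes was not tested. With these 7 copies added, which leave out Gm17383, the Tuba1 sum changed by -1.92 on the log2 scale (mean of the clones). For the members alone the change was -1.96. Gm49450, one of the copies, is a gene model on the strand of Tuba1a and Tuba1b whose exons hold 26.2% of the exonic bases of Tuba1a. Tubb4b-ps1 and Tubb4b-ps2 fell by 1.31 and 1.21 (adjusted p of 0.0119 and 0.0357), and Tubb2a-ps2 by 1.04 (0.0379).

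Outside the 10 members, the tubulin family went both ways. Tubb3, the neuronal beta isotype, went from 13.1 ± 0.18 CPM to 3.22 ± 0.15 and 2.64 ± 0.17. Tubd1 and Tube1, the delta and epsilon tubulins of centrioles, rose by 1.08 (SE 0.18, adjusted p = 0.0109) and 1.08 (SE 0.19, adjusted p = 0.0130). Tubg1, the gamma tubulin that nucleates microtubules, had 27.5 ± 0.14 CPM in parental cells, 28.6 ± 2.7 in clone 1 and 45.9 ± 2.7 in clone 2. It was higher in clone 2 than in clone 1 by 0.68 (SE 0.069, edgeR adjusted p = 1.08e-06), and it did not pass with the clones as replicates (0.47, adjusted p = 0.199). Tubg2 did not pass (-0.19, adjusted p = 0.666), and Tuba8 had 19 and 20 counts in the parental libraries and 1 to 7 in the others (-2.33, adjusted p = 0.0525). Tuba3a, Tuba3b, Tubb1 and Tubal3 had at most 7 counts in any library and were not tested.

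Few genes of the machinery that folds tubulin passed with the clones as replicates, where 26.7% of all genes were called. Of 14 genes of the chaperonin CCT, which folds tubulin, and of prefoldin, which hands it over, 0 were higher and 2 lower in labelled knockout against parental, with a median log2 fold change of -0.02. The 2 were Cct8 (-0.37, SE 0.088, adjusted p = 0.0341) and Cct3 (-0.36, SE 0.087, adjusted p = 0.0359). The prefoldin gene Vbp1 did not pass (0.61, adjusted p = 0.0933), but it was higher in clone 1 by 0.86 (edgeR adjusted p = 1.83e-07). Of 7 genes of the cofactors that join alpha and beta tubulin into dimers, 0 passed (median 0.03), with 0 at an unadjusted p under 0.05 by edgeR. By clone, 1 cofactor gene rose and 4 fell in clone 1, and 3 rose and 1 fell in clone 2. Of all genes 54.5% were called in clone 1 and 53.5% in clone 2. In clone 2 against clone 1, 5 cofactor genes were higher and 0 lower, where 16.1% of all genes were higher and 20.3% lower. Tbcd, chosen after its value was seen, changed by -0.41 in clone 1 and 0.31 in clone 2 (difference 0.72, edgeR adjusted p = 3.34e-08). Ttc5, Scaper and Cnot11, which act in tubulin mRNA autoregulation, also did not pass, at 0.12 (SE 0.092), 0.03 (SE 0.10) and 0.02 (SE 0.093). Of 9 genes of the gamma-tubulin ring complex, from which microtubules grow, and of its partners 0 passed (median 0.05). In these 2 lists too, 0 genes had an unadjusted p under 0.05.

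Enzymes that modify tubulin went both ways. In labelled knockout against parental 13% of all genes rose and 13.6% fell. Of 7 genes of acetylation and detyrosination, 2 rose and 2 fell. Vash1, a vasohibin that removes the final tyrosine of alpha tubulin, went from 70.1 ± 0.26 CPM to 167 ± 5.5 and 218.9 ± 1.46 (2.82-fold, adjusted p = 0.00227), and Vash2 rose by 0.46 (SE 0.11, adjusted p = 0.0332). Atat1, the alpha tubulin acetyltransferase, fell by 0.76 (SE 0.17, adjusted p = 0.0255) and the deacetylase gene Sirt2 by 0.39 (SE 0.084, adjusted p = 0.0262). Of 15 tested genes of glutamylation and glycylation 0 rose and 1 fell. It was Ttll10, a glycylase gene (-2.96, SE 0.43, adjusted p = 0.00769), which had 1.51 ± 0.021 CPM in parental cells.

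Of 12 genes of proteins that bind the microtubule lattice, 0 rose and 7 fell with the clones as replicates, where 13.6% of all genes fell, and the median was -0.74. Map2, a MAP of dendrites and the most abundant of the list, had 975 ± 5.1 CPM in parental cells, 1403 ± 109.3 in clone 1 and 1035 ± 17 in clone 2, and did not pass (0.35, SE 0.15, adjusted p = 0.153). Map1b, a MAP of growing axons, went from 257 ± 6.7 CPM to 19.99 ± 1.0 and 13.2 ± 0.45 (-3.93, SE 0.22, adjusted p = 0.000438). Map6, which makes microtubules stable to cold, fell by 2.58 (SE 0.11, adjusted p = 0.000272) and Map1a by 1.24 (SE 0.12, adjusted p = 0.00185). Dcx, of migrating young neurons, was also among those that fell, by 2.80 (SE 0.13).

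Stathmins, plus-end factors and severing enzymes differed within their lists. With the clones as replicates, 13% of all genes rose and 13.6% fell. Of 4 stathmin genes, whose proteins bind free dimers, 3 fell and Stmn1 did not pass (-0.13, SE 0.13, adjusted p = 0.517). Stmn1 was the abundant one, at 85.1 ± 0.99 CPM in parental cells. Stmn3 (9.09 ± 0.36 CPM), Stmn4 (1.64 ± 0.063 CPM) and Stmn2 (0.253 ± 0.027 CPM) had log2 fold changes of -2.14, -2.67 and -1.83, with adjusted p from 0.00188 to 0.0339. Of 11 plus-end and polymerase genes 3 rose and 2 fell. Tacc3, of the mitotic spindle, rose by 3.20 (SE 0.11, adjusted p = 0.000204) and Tacc2 by 1.27 (SE 0.083, adjusted p = 0.000646). Clasp2 rose by 0.34 (SE 0.092, adjusted p = 0.0488), while Mapre3 fell by 0.74 (SE 0.099, adjusted p = 0.00592) and Clip1 by 0.84 (SE 0.13, adjusted p = 0.00844). Of 7 severing genes 2 rose and 1 fell: Fignl1 rose by 2.73 (SE 0.33, adjusted p = 0.00404), Spast by 0.34 (SE 0.090, adjusted p = 0.0462), and Katnal1 fell by 0.63 (SE 0.086, adjusted p = 0.00622).

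**Figure D5:**
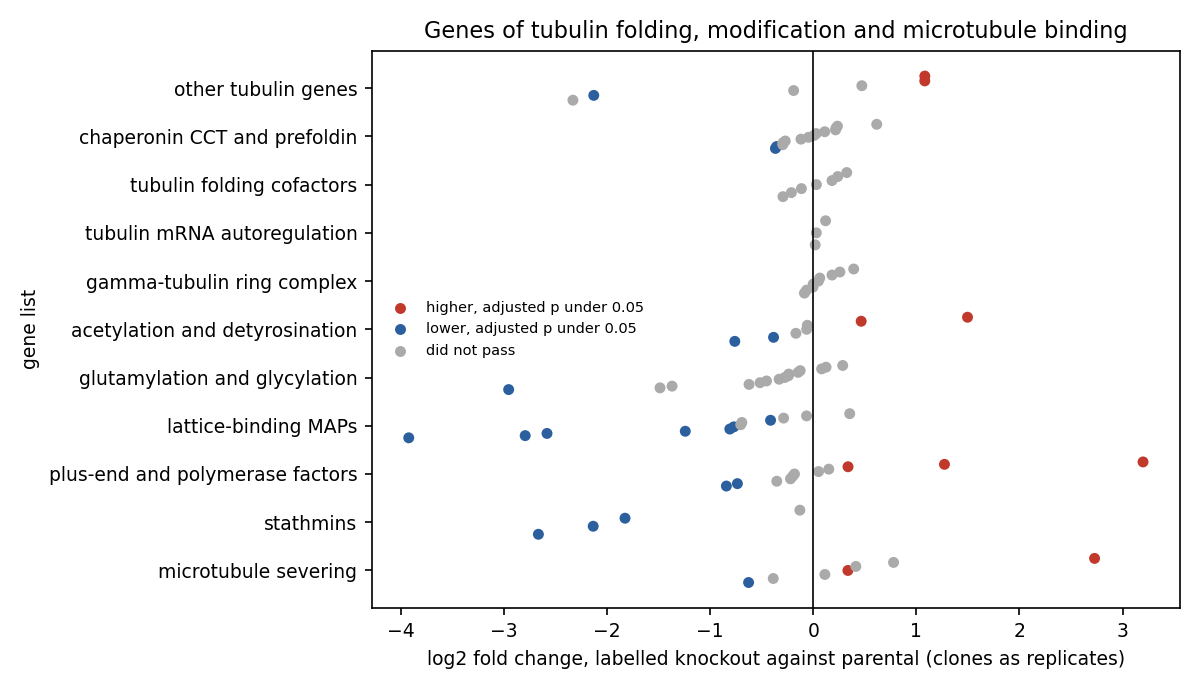
Log2 fold change in labelled knockout against parental cells with the clones as replicates (horizontal axis) of the tested genes of each list (vertical axis); each point is a gene, coloured by whether it passed an adjusted p of 0.05. Of the autoregulation genes 0 passed, and 7 lattice-binding genes fell.

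Markers of cell types moved with these genes. The summed level of 8 neuron markers was 107 to 109 CPM in parental cells, 42.3 to 45.3 in clone 1 and 24.6 to 26.9 in clone 2. With the clones as replicates 2 of 7 tested fell, beside 13.6% of all genes. Gap43, of growing axons, made up most of the parental sum, at 75.96 ± 1.26 CPM against 5.42 ± 0.21 and 0.996 ± 0.11. Syt1 and Elavl4 went the other way in clone 1, from 2.73 ± 0.40 to 8.71 ± 0.24 CPM and from 13.6 ± 0.27 to 24.9 ± 2.2. Among the defining neuron genes, Rbfox3 had 122 and 130 counts in parental cells, 21 and 30 in clone 1, and 2 and 1 in clone 2, and Snap25 had at most 57 counts in any library. The 8 astrocyte markers summed to 7238 and 7265 CPM in parental cells, 2695 to 2713 in clone 1 and 3656 to 3686 in clone 2. Most of that fall was in Gfap (2691 ± 39.9 CPM to 1.59 ± 0.086 and 9.70 ± 0.30), Aqp4, Slc1a3 (1579 ± 6.0 to 1062 ± 3.7 and 1078 ± 7.9) and Gja1. S100b rose (52.4 ± 3.3 to 70.5 ± 3.1 and 90.1 ± 1.3). Slc1a2 and Aldoc were higher in clone 2, while Aldoc was lower in clone 1 (683 ± 3.4 to 428 ± 39). The 8 oligodendrocyte lineage markers went from 1288 and 1291 to between 5242 and 6451, with Olig1, Olig2 and Cspg4 higher and Mbp and Mog lower. The 8 markers of cycling cells went from 58.6 and 59.3 to between 721 and 1118. Of the 5 ependymal markers Foxj1 was nearly the whole sum (38.5 ± 1.3 CPM to 6.98 ± 0.057 and 7.71 ± 0.49), and the other 4 were at or below about 1 CPM. Microglia markers stayed near 0, at 0.981 to 2.04 CPM summed over 6 genes, and so did the 6 fibroblast and mural markers, at 1.28 to 4.39. Of 7 progenitor markers Nes, Fabp7 and Hes5 rose, Sox1 and Msi1 fell, and Sox2 and Pax6 did not pass. The part of these shifts in the tubulin values was not tested. In bulk RNA, fewer cells of a type and less RNA per cell cannot be told apart.

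Genes near the members were counted within 200000 bases, among protein-coding genes that were tested. In labelled knockout against parental 1 of 12 rose and 2 fell near the Tuba1 cluster, and 1 of 15 rose and 4 fell near Tuba4a, beside the 26.7% called over all genes. Near the Tuba1 cluster these were Troap, a gene of the mitotic spindle (6.25), Arf3 (-0.55) and the copy Gm49450 (-1.84). In clone 2 against clone 1, where 16.1% of all genes were higher and 20.3% lower, 0 of 12 were higher and 6 lower near the Tuba1 cluster. Near Tuba4a 6 of 15 were higher and 1 lower. The counts were 3 and 1 of 6 near Tubb2a and Tubb2b, and 8 and 3 of 20 near Tubb4b. Near Tubb5, which did not differ past the test, 7 of 19 were higher and 3 lower. Among the neighbours counted, Gm49450 (lower) shares exonic bases with Tuba1a and Tuba1b, Fam166a (higher) with Tubb4b, and Stk16 (did not pass) with Tuba4a. Whether neighbours and members changed together was not tested. Near Tubb4a, far lower in clone 2, 4 of 13 were higher and 1 was lower, Slc25a23 (-0.14, chosen after its value was seen).

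The genes whose pattern over the 6 libraries was most like that of Tuba4a and of Tubb4a were found by the distance between their centred log2 CPM, among 10197 protein-coding genes of at least 5 CPM. For Tuba4a these were Angptl4 (distance 0.31), Pth1r (0.35) and Nbl1 (0.47). Angptl4, which encodes an inhibitor of lipoprotein lipase, went from 14.4 ± 0.33 CPM to 0.321 ± 0.042 and 0.462 ± 0.012. For Tubb4a the closest was Slc6a11 (distance 0.26), a GABA transporter gene of astrocytes, and Nynrin (0.86) and Pcdh15 (0.89) were farther. Slc6a11 had 405 ± 8.3 CPM in parental cells, 328 ± 7.5 in clone 1 and 41.3 ± 0.66 in clone 2.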

How the data were processed

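Gene counts were deposited by the authors as whole numbers per gene, not normalized. STAR, featureCounts, GRCm38.p6 and mm10 are listed in the submitters' processing notes with no version of a tool. Neither strand nor multi-mapping settings were stated there. Per the labels' protocols, total RNA was made into libraries with a SMART-Seq v4 or a TruSeq kit; which library had which is not given. Groups came from the sample titles. All 42365 genes entered edgeR 4.0.16 (limma 3.58.1, R 4.3.3): filterByExpr (minimum count of 10), TMM, the robust quasi-likelihood test and Benjamini-Hochberg adjustment at 0.05. Clones were summed for the main comparison (4 columns, 2 residual degrees of freedom), and the 3-group fit of 6 libraries had 3. The SE is the size of the log2 fold change divided by the square root of F. Level per length used the union of exons in GENCODE M21, in which 41791 IDs were found. Alternatives were other scalings, filters, DESeq2 1.42.0, a replicate block, added pseudogene counts, other lengths and leaving out each library. The tests were tried on simulated counts. Named genes are the members, other tubulin genes, up to 4 genes of each list with the smallest adjusted p, the 3 nearest patterns to the alpha and the beta member that changed most, and defining markers. Tbcd, Map2, Clasp2, the copies, neighbours of members and further markers were named outside this rule. Members and lists were chosen with earlier results of these data known. The library totals, from 58871554 to 69530032 counts, set counting error, but reads are not independent molecules, so precision was judged from the spread between libraries.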

Additional observations from a re-analysis of the deposited data

Results flagged for a closer look

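For 9 members the level differed between the 2 labelled knockout clones in the test of clone 2 against clone 1 (edgeR's quasi-likelihood test, adjusted p from 1.21e-12 to 0.0171). Libraries stand as replicates there, so these p-values measure the spread between libraries of a group, which may be technical. The log2 fold change of clone 2 minus clone 1 was -3.56 for Tubb4a, -0.35 for Tuba1c, -0.31 for Tuba1b and -0.16 for Tuba1a. It was 0.49 for Tuba4a, 0.34 for Tubb2a, 0.29 for Tubb2b, 0.26 for Tubb6 and 0.24 for Tubb4b. Tubb4a stands apart by size, with 990 and 970 counts in clone 1 against 89 and 69 in clone 2. All genes called in this comparison made up 36.4% of those tested.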

How the results depend on the processing

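Of the log2 fold changes of members under the alternatives, 495 kept their direction and side of the threshold, 20 lost and 13 gained a call, and 2 changed sign, both of Tubb5 between the clones, where leaving out each library gave -0.088 to 0.031. With a mean of at least 5 CPM, genes called numbered 3795 (labelled knockout against parental), 8019 (clone 1) and 7847 (clone 2). With libraries as replicates of the mean clone effect they numbered 13213, with 1 member called higher, and Tubb2a, Tubb2b and Tubb4a then passed as lower. Members called higher in clone 1 were 0 with DESeq2 size factors, upper quartile scaling, at least 5 CPM or DESeq2, and in clone 2 1 with no filter. Leaving out each library gave 2529 to 6714 genes for labelled knockout against parental (members lower 4 to 7), 10469 to 12863 for clone 1 (members higher 0 to 1), 10433 to 14052 for clone 2 (members higher 0 to 1) and 5765 to 9291 between the clones. The rise of the Tubb5 share of beta tubulin was 9.60 points with the longest transcript, 10.3 with the coding length and 10.3 with no length scaling. Leaving out each library gave 8.55 to 9.11 points. The replicate numbers do not pair the samples (r of deviations from -0.065 to 0.087). With a replicate block 6843 genes were called in labelled knockout against parental, 12659 in clone 1, 12412 in clone 2 and 8449 between the clones, and Tubb2a passed (adjusted p = 0.0300). Chosen after seeing the data, adding the copies analysed here gave a log2 change of the alpha to beta ratio of -1.58, against -1.64. Depth limits Tubb4a and Tuba4a most, at 69 to 156 counts in their low libraries.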
